A study of Mus musculus with 12 samples.

Results

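Regulatory T (Treg) cell identity genes were followed in 12 RNA-sequencing libraries of sorted lymph node (LN) T cells. The 10 genes were chosen by symbol, namely Foxp3, Ikzf2, Ikzf4, Il2ra, Lrrc32, Ctla4, Nrp1, Gpr83, Itgae and Izumo1r, and 10 of 10 were found among the 12809 genes of the expression table. Treg cells are the T cells that restrain immune responses against self, and the transcription factor Foxp3 defines them. They use the IL-2 receptor, inhibitory surface molecules and bound TGF-β, and in normal mice they arise among helper-lineage CD4 T cells and are very rare among CD8 T cells.

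The libraries fell into 4 groups of 3, CD4 T cells and CD8 T cells of each strain, B6 and FlipFlop. B6 mice were unaltered C57BL/6 females aged 10 weeks, and FlipFlop mice were females aged 14 weeks per the labels, so that strain and age cannot be told apart. The study's methods give both sexes and an age range that ends below the FlipFlop age in the labels, save where the study says otherwise. In FlipFlop mice both copies of chromosome 6 carried a Cd4 gene altered to encode CD8 and a Cd8a gene altered to encode CD4, in every cell from the germline on. FlipFlop CD8 T cells are therefore the cells that use the Cd4 locus, as B6 CD4 T cells do, and these 2 groups are called helper-lineage here. B6 CD8 and FlipFlop CD4 T cells are called cytotoxic-lineage. The study states that FlipFlop mice retain genes of another mouse strain, from the embryonic stem cells in which the Cd8 locus was altered. It ascribes to them the few exceptions to the reversal. In these libraries such genes, the altered loci and age cannot be told apart. The sources used here do not say whether each library came from a separate mouse, so the p-values measure the spread between these libraries. A further limit on those of the ratios to Foxp3 is given below. The libraries were of bulk cells, in which fewer Treg cells and less of a transcript per Treg cell cannot be told apart. By flow cytometry the study counted Foxp3-positive LN cells in both helper-lineage groups. On them it reports like profiles of the proteins that Il2ra, Ctla4, Ikzf2 and Nrp1 encode.

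Levels are given as CPM, read counts relative to library size, scaled between libraries by the trimmed mean of M-values (TMM). Each library held about 26600000 to 33100000 reads on the listed genes, and 3 reads corresponded to 0.0857 to 0.120 CPM. The T cell transcript Cd3e was at 379 CPM (SD 25.6, n = 3) in B6 CD4 and, in FlipFlop CD8 T cells, at 345 ± 14.1 CPM, and 6 T cell genes summed to 3041 to 4262 CPM over the 12 libraries. All 10 genes passed the filter of at least 1 CPM in at least 3 libraries, as did 11595 genes in all, and Lrrc32 passed it through its helper-lineage libraries alone. In the text, a gene is said to rise, to fall or to be called where limma gave an adjusted p under 0.05 over all tested genes.

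The sequence just before the start of transcription is shown for 3 of the genes, Foxp3 as the gene the others are compared with, Il2ra as a receptor gene whose rise was not called different from that of Foxp3, and Gpr83 as a gene that rose less than Foxp3. Promoters from RefSeq (GRCm38.p6) matched 6 of 10 genes by symbol. The 250 bases before each start were searched on both strands for a forkhead motif (TGTTTAC), a RUNX motif (TGTGGTT) and a STAT motif (TTCNNNGAA). Capitals mark the STAT match, and all windows are on the plus strand, 5′ to 3′.
Foxp3, chrX:7580233-7580482: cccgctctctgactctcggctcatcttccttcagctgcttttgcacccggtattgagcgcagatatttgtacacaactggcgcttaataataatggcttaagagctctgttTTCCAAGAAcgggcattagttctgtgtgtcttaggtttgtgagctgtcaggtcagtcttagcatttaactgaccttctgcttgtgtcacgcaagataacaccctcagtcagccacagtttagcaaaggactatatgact
Il2ra, chr2:11642542-11642791: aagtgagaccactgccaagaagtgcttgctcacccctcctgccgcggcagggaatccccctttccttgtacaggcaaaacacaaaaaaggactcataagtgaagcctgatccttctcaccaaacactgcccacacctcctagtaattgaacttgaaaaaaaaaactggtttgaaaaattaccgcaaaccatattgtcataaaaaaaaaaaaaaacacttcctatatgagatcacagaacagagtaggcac
Gpr83, chr9:14859960-14860209: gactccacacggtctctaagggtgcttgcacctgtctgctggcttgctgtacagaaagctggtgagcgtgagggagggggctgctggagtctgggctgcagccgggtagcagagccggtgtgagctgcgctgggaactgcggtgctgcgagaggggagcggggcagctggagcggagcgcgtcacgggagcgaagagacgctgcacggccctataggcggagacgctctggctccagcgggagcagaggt
RefSeq gives 2 starts for Foxp3. The window shown lies inside the annotated gene and overlaps none of its GENCODE exons, whereas the other, chrX:7579426-7579675, overlaps an exon, held no match to the 3 motifs and has a G and C content of 37.6%. The windows of Il2ra and Gpr83 end before the first annotated base of the gene. The STAT match in the printed Foxp3 window stood 139 to 131 bases before the start. Among all 32851 RefSeq promoters of this length, 7.02% held the STAT motif, 3.17% the forkhead motif and 4.40% the RUNX motif. No other match to the 3 motifs was found in the windows of the 6 genes, so that no matches overlapped. The G and C content was 46.0% in the printed Foxp3 window, 42.4% in the Il2ra window and 66.8% in the Gpr83 window, against a median of 52.4% over all promoters.

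Foxp3, the lineage factor of Treg cells (chromosome X, 7573644 to 7595245, plus strand, GRCm38), was found almost entirely in the helper-lineage groups. Its level was 93.1, 128 and 103 CPM in the B6 CD4 libraries and 305, 362 and 312 CPM in the FlipFlop CD8 libraries. It was 0.974, 1.40 and 0.530 CPM in B6 CD8 and 2.30, 2.07 and 1.60 CPM in FlipFlop CD4 T cells. The 4 groups did not overlap, and their order was FlipFlop CD8, B6 CD4, FlipFlop CD4 and B6 CD8. Mean Foxp3 was 112-fold higher in CD4 than in CD8 T cells of B6 mice and 164-fold higher in CD8 than in CD4 T cells of FlipFlop mice. FlipFlop CD8 T cells had 3.01 times the Foxp3 of B6 CD4 T cells. On the scale of log2(CPM + 0.5) the last difference was 1.60 (SE 0.20, adjusted p = 2.09e-04, limma). In B6 CD8 T cells the values came from 16 to 35 reads per library, and in FlipFlop CD4 T cells from 43 to 70.

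**Figure D1:**
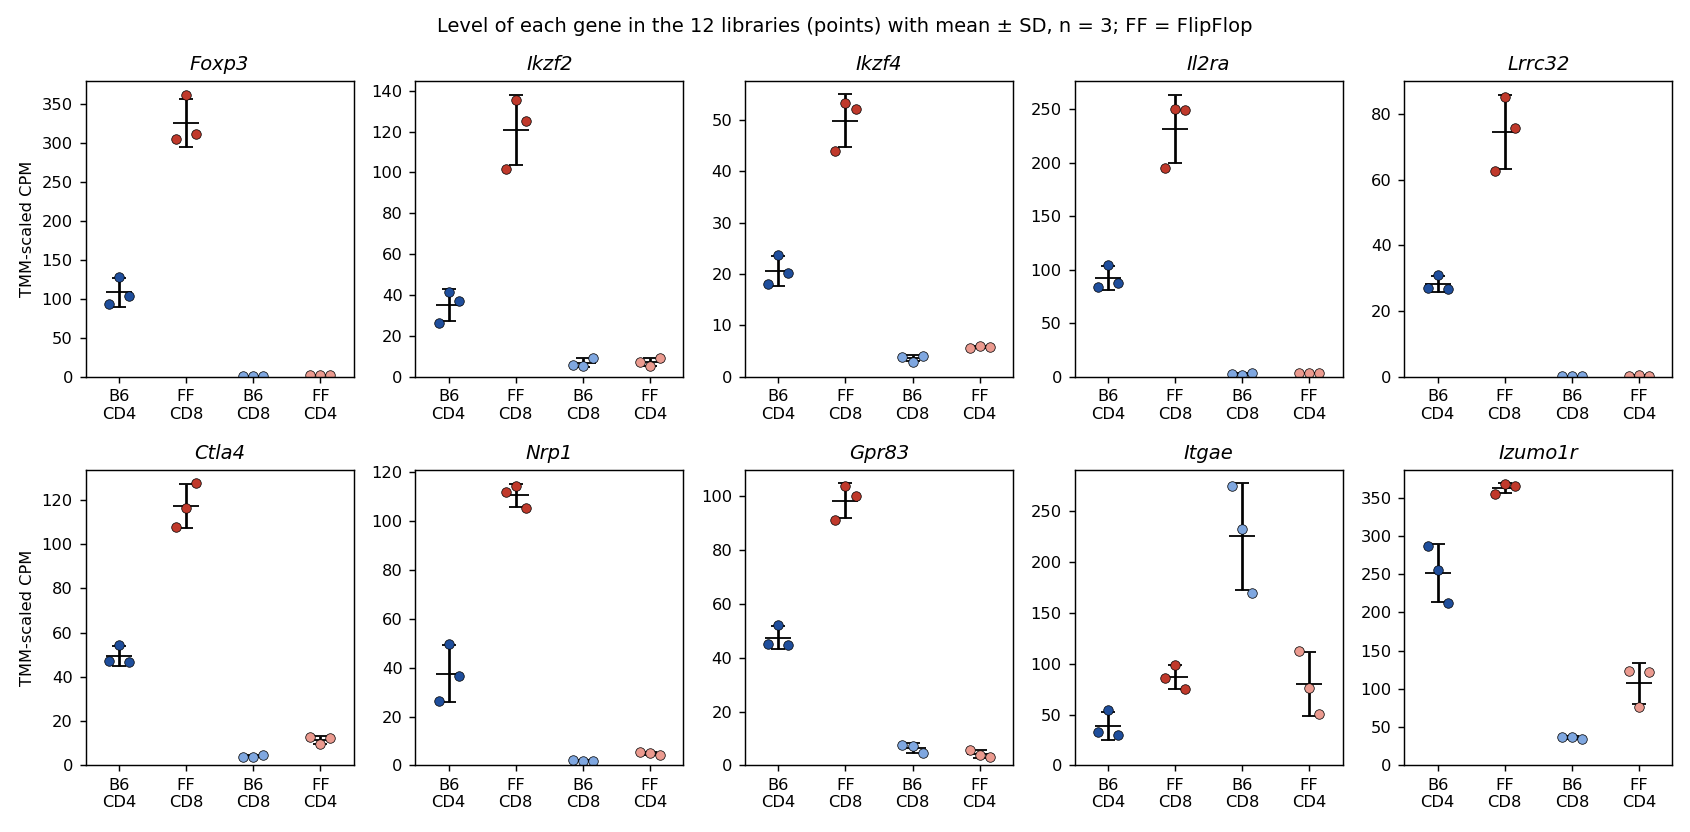
TMM-scaled CPM of the 10 Treg cell identity genes, 1 panel per gene, each on its own axis from 0. Points are the 3 libraries of a group and bars are mean ± SD. FF stands for FlipFlop. FlipFlop CD8 lies above B6 CD4 in each panel without overlap, and Itgae is the panel in which B6 CD8 is highest.

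Ikzf2 and Ikzf4 encode Helios and Eos, zinc finger factors of the Ikaros family that work alongside Foxp3. Ikzf2 (chromosome 1, minus strand) was at 26.5, 41.6 and 36.9 CPM in B6 CD4 and 102, 135 and 125 CPM in FlipFlop CD8 T cells, a rise of 3.45-fold in the mean (log2 difference 1.79, SE 0.23, adjusted p = 3.04e-04, limma). This was the largest ratio of the 10 genes between the helper-lineage groups. In the cytotoxic-lineage groups Ikzf2 was at 5.20 to 9.31 CPM in B6 CD8 and 5.33 to 9.0 CPM in FlipFlop CD4 T cells, which overlapped. Ikzf4 (chromosome 10, minus strand) was at 18.0, 23.8 and 20.2 CPM in B6 CD4 and 44.0, 53.4 and 52.2 CPM in FlipFlop CD8 T cells, a 2.41-fold rise (log2 difference 1.25, SE 0.13, adjusted p = 6.73e-05). Its 6 cytotoxic-lineage libraries lay between 2.88 and 5.91 CPM, those of FlipFlop CD4 above those of B6 CD8.

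Il2ra and Lrrc32 encode surface molecules tied to cytokines. Il2ra (chromosome 2, plus strand) encodes the α chain that gives the IL-2 receptor its high affinity. It was at 84.3, 105 and 87.2 CPM in B6 CD4 and 195, 251 and 249 CPM in FlipFlop CD8 T cells, a 2.52-fold rise (log2 difference 1.32, SE 0.17, adjusted p = 3.11e-04, limma). The cytotoxic-lineage libraries held 1.84 to 3.88 CPM of Il2ra, and the lowest helper-lineage library stood far above all of them. Lrrc32 (chromosome 7, plus strand) encodes GARP, which holds latent TGF-β at the cell surface. It was at 27.1, 30.9 and 26.7 CPM in B6 CD4 and 62.8, 85.1 and 75.8 CPM in FlipFlop CD8 T cells, a 2.64-fold rise (log2 difference 1.38, SE 0.16, adjusted p = 1.10e-04). Lrrc32 was all but missing from the cytotoxic-lineage groups, at 4 to 6 reads per library in B6 CD8 and 3 to 11 reads in FlipFlop CD4 T cells. Its mean was 164-fold higher in B6 CD4 than in B6 CD8 and 295-fold higher in FlipFlop CD8 than in FlipFlop CD4 T cells, ratios that rest on these few reads. The fitted log2 difference accordingly moved with the pseudocount, from 4.64 to 6.71 in B6 and from 5.91 to 7.81 in FlipFlop mice.

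Ctla4 and Nrp1 encode receptors. Ctla4 (chromosome 1, plus strand) encodes the inhibitory receptor for CD80 and CD86. It was at 47.2, 54.6 and 46.5 CPM in B6 CD4 and 108, 116 and 127 CPM in FlipFlop CD8 T cells, a 2.37-fold rise (log2 difference 1.23, SE 0.12, adjusted p = 3.48e-05, limma). Ctla4 differed between the cytotoxic-lineage groups as well, with 3.93, 4.0 and 4.74 CPM in B6 CD8 against 12.7, 9.60 and 12.3 CPM in FlipFlop CD4 T cells. Nrp1 (chromosome 8, plus strand) encodes neuropilin-1, a semaphorin receptor. It was at 26.2, 49.8 and 36.7 CPM in B6 CD4 and 112, 114 and 105 CPM in FlipFlop CD8 T cells, a 2.94-fold rise (log2 difference 1.59, SE 0.18, adjusted p = 1.10e-04). B6 CD4 libraries varied most for Nrp1 and Itgae, with coefficients of variation of 31.5% and 34.9%, against 8.22% to 22.1% for the other 8 genes. Nrp1 was at 1.76 to 2.13 CPM in B6 CD8 and 4.39 to 5.58 CPM in FlipFlop CD4 T cells, again without overlap.

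Gpr83 and Izumo1r are neighbours on chromosome 9, with 15 kb between them and opposite strands. Gpr83 encodes a G protein-coupled receptor. It was at 45, 52.3 and 44.9 CPM in B6 CD4 and 91.3, 104 and 100.2 CPM in FlipFlop CD8 T cells, a 2.08-fold rise (log2 difference 1.05, SE 0.21, adjusted p = 0.00433, limma). In the cytotoxic lineage Gpr83 was at 7.71, 7.36 and 4.51 CPM in the B6 CD8 libraries, against 5.75, 3.84 and 3.01 CPM for FlipFlop CD4. Its mean and that of Itgae were the ones not higher in FlipFlop CD4 T cells, and for Gpr83 these libraries overlapped. Izumo1r encodes folate receptor 4, a surface protein also found on some conventional CD4 T cells. It was at 287, 256 and 212 CPM in B6 CD4 and 355, 368 and 365 CPM in FlipFlop CD8 T cells. Its rise of 1.44-fold was the smallest of the 10 (log2 difference 0.54, SE 0.16, adjusted p = 0.0295). The call of Izumo1r was lost without any 1 of 5 libraries, B6 CD4 replicates 2 and 3 and each FlipFlop CD8 replicate, at adjusted p-values of 0.0505 to 0.0821, and without eBayes (0.0744). Izumo1r was also the gene with most signal outside the helper lineage apart from Itgae, at 36.5, 37.8 and 34.8 CPM in B6 CD8 and 124, 75.7 and 122 CPM in FlipFlop CD4 T cells.

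Itgae (chromosome 11, plus strand) did not follow the other genes. It encodes the αE integrin chain CD103, which binds E-cadherin and is carried by many CD8 T cells as well as by Treg cells. Itgae was at 32.8, 54.8 and 29.8 CPM in B6 CD4 and 274, 232 and 169 CPM in B6 CD8 T cells, 5.76-fold higher in the latter. In FlipFlop mice it was at 86.1, 98.6 and 75.0 CPM in CD8 and 113, 76.4 and 50.3 CPM in CD4 T cells, which overlapped. The order of the groups was B6 CD8, FlipFlop CD8, FlipFlop CD4 and B6 CD4. Between the helper-lineage groups Itgae rose 2.21-fold (log2 difference 1.18, SE 0.29, adjusted p = 0.0119, limma), and between the cytotoxic-lineage groups it was lower in FlipFlop mice by 1.54 on the log2 scale (SE 0.29, adjusted p = 0.00548).

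Compared per kilobase of annotated exon, Izumo1r was the most abundant of the 10 transcripts in both helper-lineage groups, with a mean level of 108 CPM per kb in B6 CD4 and 156 CPM per kb in FlipFlop CD8 T cells. Foxp3 followed at 23.6 and 71.2 CPM per kb, then Ctla4 at 21.2 and 50.2 CPM per kb and Il2ra at 16.1 and 40.6 CPM per kb. Ikzf2 and Ikzf4 were the least abundant, at 3.02 and 3.45 CPM per kb in B6 CD4 and 10.4 and 8.32 CPM per kb in FlipFlop CD8 T cells. The order was thus the same in both groups down to this last pair. Single libraries stood out in the same way for most of the genes. In B6 CD4 T cells replicate 2 gave the highest value for 9 of 10 genes, the exception being Izumo1r, and in FlipFlop CD8 T cells replicate 2 gave the highest value for 9, the exception being Ctla4. FlipFlop CD8 replicate 1 gave the lowest value for 8 of 10, all but Nrp1 and Itgae.

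The first comparison asked how the genes divide the lineages in each strain. In B6 mice 9 of 10 genes were called higher in CD4 cells, against 14.6% of all tested genes, and Itgae was called lower, against 10.8%, so that 10 were called in all, against 25.4%. The median log2 difference was 3.10 over the 10 genes and -0.0038 over all genes. In FlipFlop mice 9 of 10 were called, each higher in CD8 cells, against 31.3% of all tested genes called and 16.0% called higher, with a median of 4.16 over the 10 genes and -0.04 over all. Itgae was the gene not called there (log2 difference 0.18, SE 0.29, adjusted p = 0.682, limma). Lrrc32 passed the filter through the helper lineage alone, and without it 8 of 9 genes were called higher in the helper lineage of either strain. Apart from Itgae, the genes were thus higher in the CD4 T cells of B6 and in the CD8 T cells of FlipFlop mice. Transcripts of other states moved between the FlipFlop groups too. In CD8 cells 4 of 8 memory or effector T cell genes were called higher and none lower, and 5 of 5 naive genes lower. Of 8 myeloid genes 4 were higher and 1 lower, and 2 of 2 tested NK cell genes were higher. In B6 mice 3 memory or effector genes were higher in CD4 cells and 3 lower, and 1 of 5 naive genes was lower. The part of these states and cells was not tested. Between T cells that both carry surface CD4 but are of different lineages, from B6 CD4 to FlipFlop CD4 T cells, 9 of 10 genes were lower, against 15.7% of all tested genes, and Itgae was higher, against 12.8%, or 10 called in all, against 28.4%. Without Lrrc32 8 of 9 genes were lower there and Itgae was higher.

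The difference between the lineages was not the same size in the 2 strains. It was larger in FlipFlop mice for Ikzf2 (2.30 in B6 and 3.99 in FlipFlop mice on the log2 scale), Gpr83 (2.80 and 4.43), Lrrc32 (5.42 and 6.65) and Il2ra (4.91 and 5.84), and it was smaller for Izumo1r (2.76 and 1.79). Itgae, higher in the cytotoxic lineage of B6 mice (-2.54), was not called between the lineages of FlipFlop mice (0.18). These 6 of 10 genes were called in the test of the difference between the strains, against 5.49% of all tested genes, 5 with a negative difference of the differences, B6 minus FlipFlop, against 3.78%, and 1 with a positive one, against 1.71%. Past 5-fold there was 1 gene, Itgae, at an unadjusted p under 0.05 or under 0.0001, against 0.535% and 0.388% of all tested genes. The difference of the differences ran from -2.72 for Itgae (adjusted p = 0.00204, limma) through -1.69 for Ikzf2 (adjusted p = 0.0107), -1.63 for Gpr83 (0.00708) and -1.23 for Lrrc32 (0.00670) to 0.98 for Izumo1r (adjusted p = 0.0285). The Lrrc32 value rests on cytotoxic-lineage levels of 3 to 11 reads, under the pseudocount of 0.5. With a pseudocount of 0.1 Lrrc32 was at -1.10 and not called (adjusted p = 0.151), and without Lrrc32 5 of 9 genes were called. Without eBayes 3 genes were called, Lrrc32, Gpr83 and Itgae, and Ikzf2 (adjusted p = 0.0582), Izumo1r (0.0951) and Il2ra (0.122) were not. The calls of Izumo1r and Il2ra were near the threshold. That of Izumo1r was lost without any 1 of 10 libraries (all except B6 CD4 replicate 3 and FlipFlop CD4 replicate 2), at adjusted p-values of 0.0549 to 0.0725. That of Il2ra (-0.94, adjusted p = 0.0466) was lost without any 1 of 9 libraries (all except replicate 2 of both B6 groups and FlipFlop CD8 replicate 1), at 0.0689 to 0.119. The adjusted p of Il2ra was 0.0541 with the replicate number as a block, 0.0964 with a pseudocount of 0.1 and 0.0653 among genes with a mean of at least 5 CPM. Foxp3 itself was at -0.80 and was not called (adjusted p = 0.136), but was called with the block (0.0433), with a pseudocount of 1 (-0.97, 0.0275) and without B6 CD8 replicate 3 (0.0285). Ikzf4, at -0.62 (adjusted p = 0.0778), was called with a pseudocount of 1 (0.0450) and without replicate 2 of B6 CD4 (0.0454) or of B6 CD8 (0.0350). Ctla4 at 0.11 and Nrp1 at -0.39 were not called. Transcripts of other T cell states moved in this test too. Of 8 memory or effector genes 5 were called negative and none positive, among them Cd44 (-1.13, adjusted p = 0.00186) and Cxcr6, a chemokine receptor (-3.35, 1.79e-04). Of 5 naive genes 2 were called positive and none negative, Lef1 (0.85, 2.19e-04) and Ccr7 (0.58, 0.0152). The part of these states in the result was not tested.

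**Figure D2:**
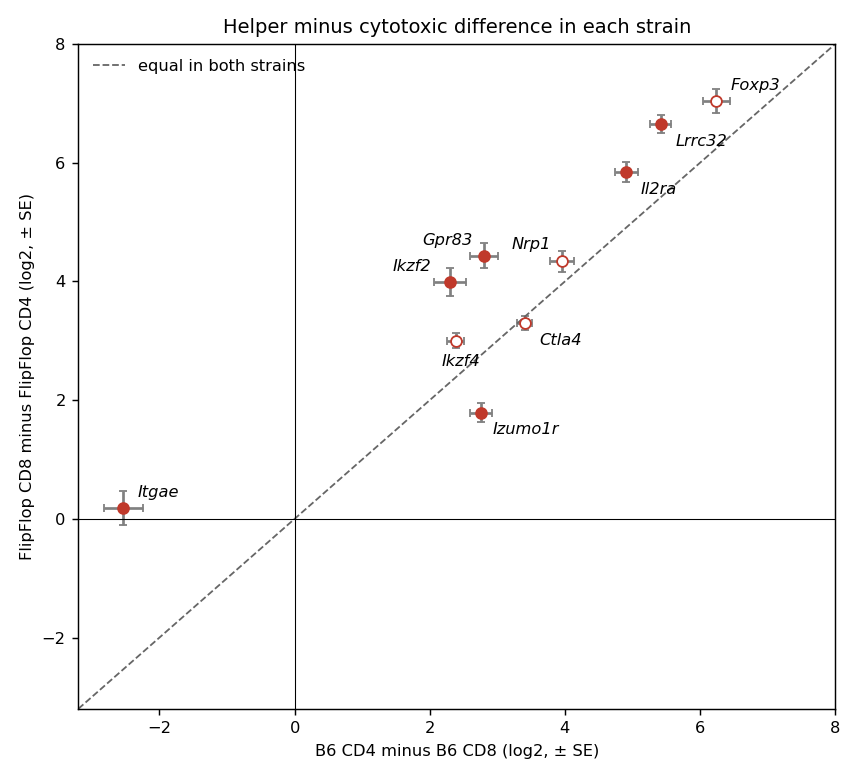
Helper-lineage minus cytotoxic-lineage difference of log2(CPM + 0.5) in B6 mice (horizontal axis, CD4 minus CD8) against FlipFlop mice (vertical axis, CD8 minus CD4), with SE bars, n = 3 libraries per group. Filled points are the 6 genes called between the strains. Izumo1r lies below the line of equal differences, Ctla4 lies close to it, and Itgae lies at -2.54 in B6 and 0.18 in FlipFlop mice.

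Within the helper lineage, 10 of 10 genes were higher in FlipFlop CD8 than in B6 CD4 T cells, against 27.6% of all tested genes called and 13.2% called higher, and every FlipFlop CD8 library lay above every B6 CD4 library for 10 of 10, as for 20.2% of all tested genes. The median log2 difference was 1.29 over the 10 genes and -0.0079 over all genes. Ratios of the means ran from 1.44 for Izumo1r to 3.45 for Ikzf2. None of the 10 changed by more than 5-fold at an unadjusted p under 0.05 or under 0.0001, as 0.448% and 0.405% of all tested genes did. Transcripts of other T cell states moved between the same libraries. Of 8 genes of memory or effector T cells 6 were higher in FlipFlop CD8 T cells, and the 8 summed to 628 to 1028 CPM there against 306 to 393 CPM in B6 CD4 T cells. Of 5 genes of naive T cells 4 were lower, and the 5 summed to 2770 to 3035 CPM against 3509 to 3752 CPM. Cd44, the hyaluronan receptor of antigen-experienced cells, was 1.81-fold higher (adjusted p = 4.35e-04, limma), and Lef1, a factor of naive T cells, was at 0.675 times its B6 CD4 level (adjusted p = 1.06e-04). None of these markers was at 0 in a group, and their part in the result was not tested.

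**Figure D3:**
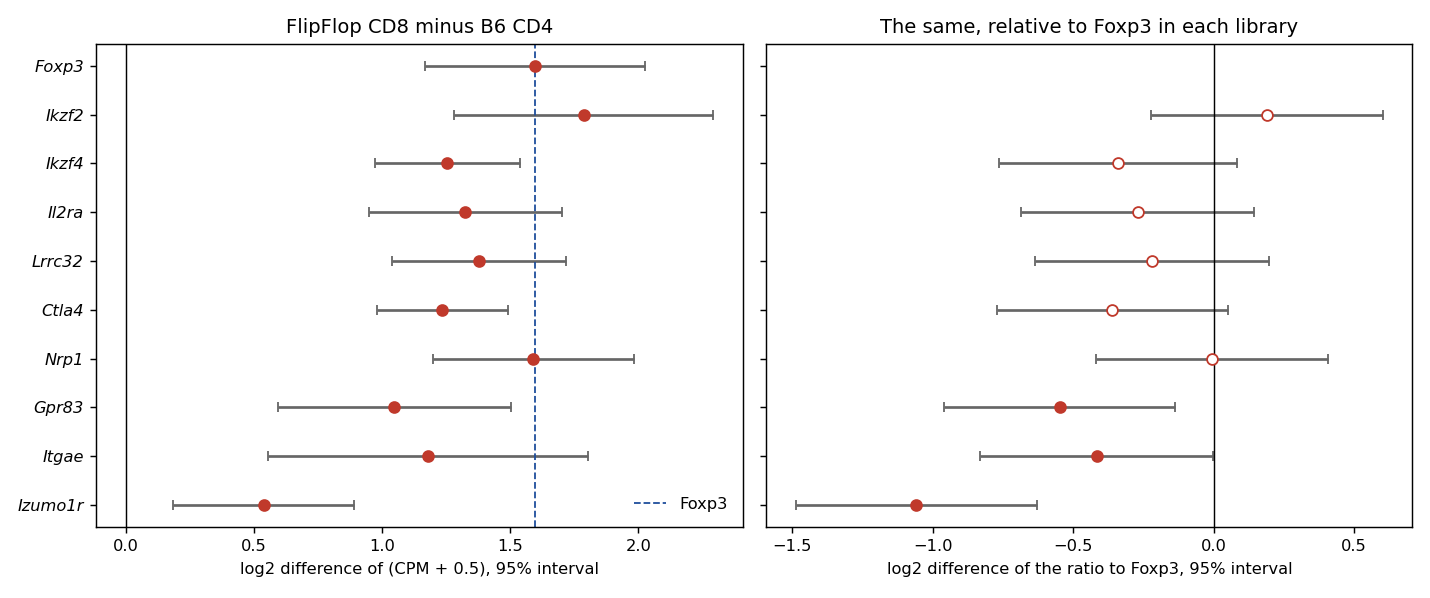
FlipFlop CD8 minus B6 CD4 for each gene, as the log2 difference of (CPM + 0.5) on the left and as the same difference after subtracting Foxp3 in each library on the right, with 95% intervals from limma. Filled points are called at an adjusted p under 0.05. On the left all 10 genes are above 0, and on the right Izumo1r lies farthest from 0 at -1.06.

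Each gene was then set against Foxp3 within the same library, in the 6 helper-lineage libraries. Izumo1r, at 3.09, 2.0 and 2.05 times Foxp3 in B6 CD4, was at 1.16, 1.02 and 1.17 times Foxp3 in FlipFlop CD8 T cells. Gpr83 went from 0.484, 0.408 and 0.435 to 0.30, 0.287 and 0.322 times Foxp3. Itgae went from 0.353, 0.427 and 0.288 to 0.283, 0.273 and 0.241 times Foxp3, and for none of these 3 genes did the groups overlap. The ratio was called lower in FlipFlop CD8 T cells for these 3 of 9 genes, with log2 differences of -1.06 for Izumo1r (SE 0.22, adjusted p = 1.58e-06, limma), -0.55 for Gpr83 (SE 0.21, adjusted p = 0.00949) and -0.42 for Itgae (SE 0.21, adjusted p = 0.0496). In this fit every gene shares the Foxp3 values of the 6 libraries. Its eBayes step set the spread of each gene from that of all genes. The p-values and intervals treat this pooled spread as known, so they do not measure each gene's own spread between libraries. Of all genes tested in this way 97.3% were called and 96.8% were called lower, 1.86% by more than 5-fold under either unadjusted p, and their median stood 1.60 below Foxp3, so a call marks only that a gene did not rise as much as Foxp3. The call of Itgae was lost without any 1 of 5 libraries, all but B6 CD4 replicate 3, at adjusted p-values of 0.0519 to 0.203, with a pseudocount of 0.1 (0.0553) and without eBayes (0.0801). With all 12 libraries in the fit Izumo1r alone was called, and Gpr83 (adjusted p = 0.0505) and Itgae (0.124) were not.

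For the other 6 genes the difference from Foxp3 was not called. Ikzf2 was at a higher ratio in FlipFlop CD8 T cells, by 0.19 on the log2 scale (95% interval -0.22 to 0.60). Nrp1 was at -0.01 (-0.42 to 0.41), a value that changed sign with single libraries left out. Lrrc32 was at -0.22 (-0.64 to 0.20), Il2ra at -0.27 (-0.69 to 0.14), Ikzf4 at -0.34 (-0.76 to 0.08) and Ctla4 at -0.36 (-0.77 to 0.05). These intervals do not show that the genes rose as much as Foxp3. They rest on the spread pooled over all genes and not on that of each gene's own ratios. Ctla4 was called without B6 CD4 replicate 2, at -0.42 (adjusted p = 0.0329, limma), and without eBayes Ctla4 (0.0480) and Ikzf4 (0.00998) were called. With the replicate number as a block Ikzf4, Il2ra and Ctla4 were called. The libraries of the 2 groups overlapped in their ratio to Foxp3 for Ikzf2, Lrrc32 and Nrp1 and did not overlap for Ikzf4, Il2ra and Ctla4. An exact permutation test (two-sided) of the ratios gave p = 0.1 for each of the 6 of 9 genes without overlap, the smallest value that 3 against 3 libraries allow. Of all other tested genes 93.4% had every FlipFlop CD8 ratio to Foxp3 below every B6 CD4 ratio, and 0.699% had every ratio above.

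**Figure D4:**
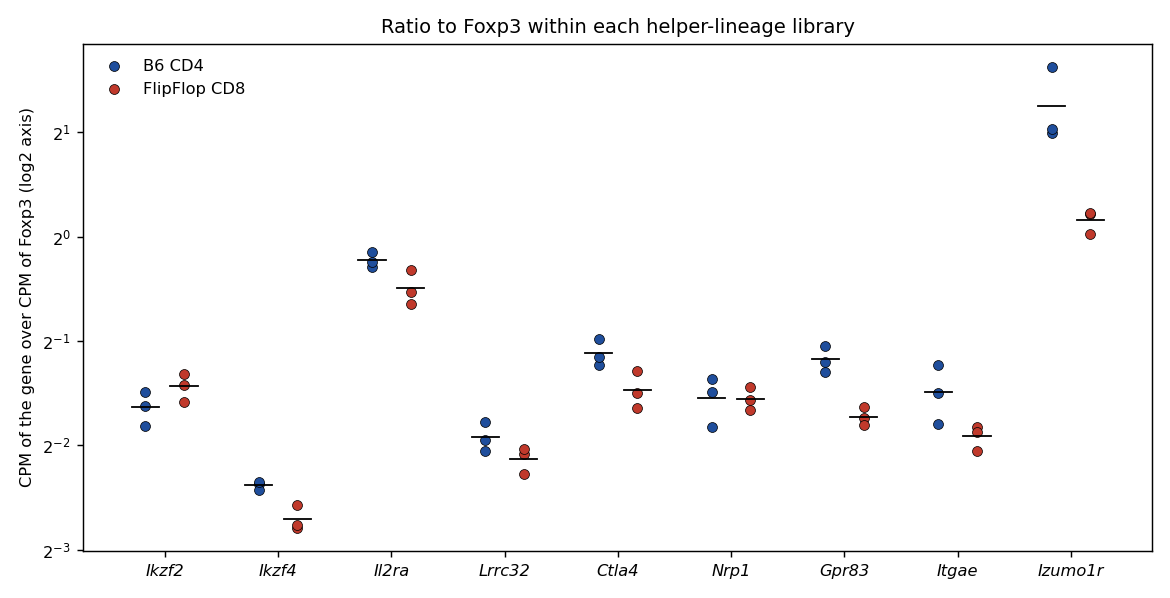
CPM of each gene divided by CPM of Foxp3 in the same library, on a log2 axis, for B6 CD4 and FlipFlop CD8 T cells. Points are the 3 libraries of a group and bars are means. Izumo1r drops from a mean of 2.38 to 1.12 times Foxp3, and Nrp1 stays at 0.342 and 0.341.

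The level in the cytotoxic lineage of the same strain can be taken off before the strains are compared. The helper-lineage excess in CPM, FlipFlop CD8 minus FlipFlop CD4, was 3.02 times the B6 excess for Foxp3. It was 4.02 times for Ikzf2, 2.96 times for Nrp1, and between 2.30 and 2.65 times for Ikzf4, Il2ra, Lrrc32, Ctla4 and Gpr83. Izumo1r was again lowest, at 1.19 times. The excess of Itgae was negative in B6 mice, so no ratio was formed.

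Between the cytotoxic-lineage groups 6 of 10 genes were called, against 7.92% of all tested genes. In FlipFlop CD4 T cells 5 were higher, against 4.17%, and Itgae was lower, against 3.75%. None changed by more than 5-fold at an unadjusted p under 0.05 or under 0.0001, as 0.535% and 0.474% of all tested genes did. The 5 were Izumo1r (log2 difference 1.51, adjusted p = 8.85e-05, limma), Ctla4 (1.34, 1.57e-05), Nrp1 (1.20, 0.00132), Foxp3 (0.80, 0.0272) and Ikzf4 (0.63, 0.0105). Mean Foxp3 was at 0.967 CPM in B6 CD8 T cells against 1.99 CPM for FlipFlop CD4, and mean Izumo1r was at 36.4 CPM against 107 CPM. The 8 memory or effector genes summed to 591 to 651 CPM in the B6 CD8 libraries and to 289 to 336 CPM in those of FlipFlop CD4. Of them 1, S100a4, was called higher (adjusted p = 0.0173) and 1, Cxcr6, lower (-1.70, 9.65e-04). The 5 naive genes summed to 4030 to 4167 CPM and 3646 to 4145 CPM, with Lef1 called higher (0.29, adjusted p = 0.0162). The part of these states was not tested. The call of Foxp3 was lost without any 1 of 4 libraries (B6 CD8 replicates 1 and 3, FlipFlop CD4 replicates 1 and 2), at adjusted p-values of 0.0581 to 0.0888, without eBayes (0.0836) and with only the compared groups in the fit (0.0750). Ikzf2 (0.09, adjusted p = 0.851), Il2ra (0.39, 0.205), Lrrc32 (0.14, 0.625) and Gpr83 (-0.59, 0.112) were not called. Gpr83 was called lower without B6 CD8 replicate 3 (-0.82, adjusted p = 0.0313) or FlipFlop CD4 replicate 1 (-0.81, 0.0262), and Il2ra was called higher without B6 CD8 replicate 3 (0.59, 0.0487).

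Other genes of Treg cells were read from lists of receptors, mediators, partners and signature genes, for FlipFlop CD8 against B6 CD4 T cells, where 13.2% of all tested genes were called higher and 14.4% lower. Of 16 Treg cell receptor genes 12 rose and 1, Il2rg, fell. The receptors named by smallest adjusted p were Il2rb, the β chain of the IL-2 receptor (284 ± 30.6 CPM against 601 ± 60.2 CPM, 2.12-fold, adjusted p = 1.41e-05, limma), and the costimulatory receptor Icos (129 ± 13.5 and 243 ± 13 CPM, 1.89-fold). Cd83 and Tnfrsf4 followed at log2 differences of 1.06 and 0.90. Among the suppressive mediators, 4 of 8 tested genes rose and none fell, including Nt5e and Entpd1, the ectoenzymes that make adenosine (0.66 and 0.99), and Fgl2 (1.04), while Penk at 0.67 was not called (adjusted p = 0.126). Of 10 other signature genes 6 rose, among them Nrn1 (1.76), Dusp4, a MAP kinase phosphatase (1.27), and Swap70 (0.82), and Capg at 0.41 was not called (adjusted p = 0.0618).

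Of 20 genes that induce Foxp3 or act with it 7 rose and 1, Ikzf1, fell. Their median log2 difference was 0.18, and that of the 10 identity genes was 1.29, a difference between lists that was not tested. Ikzf3, which encodes Aiolos, rose by 0.94 (adjusted p = 0.0109, limma), Prdm1, which encodes Blimp-1, by 0.82 (0.0220), the NF-κB subunit Rel by 0.55 (0.0261) and Irf4 by 0.51 (0.0263). Of 5 genes known to be low in Treg cells 2 fell and none rose. Igfbp4 fell by 2.01 on the log2 scale (adjusted p = 1.52e-04) and Dapl1 by 1.02 (0.00120), while Il7r at -0.37 (0.0652) and Tcf7 at -0.19 (0.0689) were not called. Markers of T cells at large and of other cells moved as well. Of 6 T cell genes 3 were lower and none higher, of 7 B cell genes 3 were lower and none higher, and of 8 myeloid genes 2 were lower and 1, Ccr9, which T cells also express, was higher (13.6 ± 3.06 CPM against 43.6 ± 4.03 CPM). Of 5 NK cell genes 2 were in the table, Klrb1c, which rose from 3.52 ± 0.769 CPM to 10.8 ± 0.848 CPM (log2 difference 1.51, adjusted p = 3.90e-04), and Tyrobp, at 1.52 ± 0.323 CPM and 1.27 ± 0.178 CPM and not called (-0.18, adjusted p = 0.514). The B cell list summed to 537 to 591 CPM in the B6 CD4 libraries and to 581 to 688 CPM in those of FlipFlop CD8, and without Ighm, its most abundant gene, to 52.7 to 69.8 CPM and 45.2 to 52.2 CPM. The myeloid list summed to 104 to 111 CPM and 117 to 131 CPM, and without Ccr9 to 86.6 to 99.4 CPM and 72.9 to 91.1 CPM. The part of these cells in the result was not tested.

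**Figure D5:**
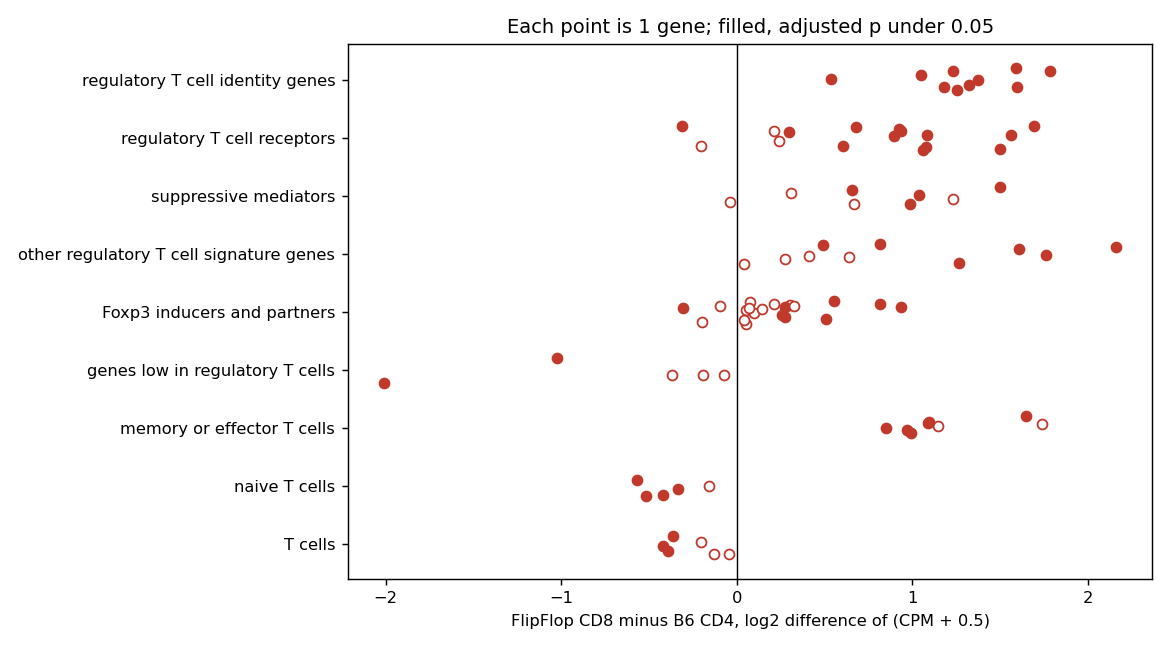
FlipFlop CD8 minus B6 CD4, as log2 of (CPM + 0.5), for the 10 Treg cell identity genes and for lists of related genes and T cell states. Each point is 1 gene and filled points have an adjusted p under 0.05. The identity genes lie between 0.54 and 1.79, and the partners of Foxp3 have a median of 0.18.

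The genes were last ranked by how nearly they kept a fixed ratio to Foxp3 over all 12 libraries, as the SD of the difference in log2(CPM + 0.5) among 9206 genes with a mean of at least 5 CPM. This is a description over 4 groups, in which any gene confined to the helper lineage scores well. Il2ra ranked 3, with an SD of 0.781. Lrrc32 had the lowest SD, 0.485, but its cytotoxic-lineage levels of 3 to 11 reads lie under the pseudocount, so its place is not read as an order. Nrp1 ranked 10, Gpr83 21, Ctla4 28, Ikzf2 38, Ikzf4 52 and Izumo1r 85, whereas Itgae ranked 9086. The 8 genes nearest to Foxp3 outside the 10 were Tnfrsf4, Zbtb7b, Ly6c1, Maf, Cd40lg, Il1rl1, Chdh and Ccr4. They include genes of helper T cells at large, and their ratios of mean CPM, FlipFlop CD8 over B6 CD4, spread from 0.641 for Ly6c1 to 3.59 for Chdh. Zbtb7b, which encodes the helper-lineage factor ThPOK, was at 0.858 times and Cd40lg at 0.723 times its B6 CD4 level in FlipFlop CD8 T cells, while Tnfrsf4 was at 1.87 and Il1rl1, which encodes the IL-33 receptor, at 2.84 times. Reads of Ly6c1 may be shared with its near copy Ly6c2, so its value is uncertain. Mean cytotoxic-lineage levels also lay under the pseudocount for Il1rl1 (0.0802 CPM for B6, 0.0927 CPM for FlipFlop mice) and Chdh (0.0935 and 0.247 CPM). For Ly6c1 this held for the B6 mean alone (0.460 CPM). The places of Il1rl1, Chdh and Ly6c1 are therefore not read as an order either.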

How the data were processed

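RNA was prepared from sorted CD4 and CD8 LN T cells, and libraries were made with a low-input kit and sequenced paired-end. The authors aligned reads to mm10, with STAR per the study's methods, while the submitters' processing notes name Trimmomatic and TopHat. The counting program, annotation and gene filter are not given in the sources used here. The deposited values are a normalized signal in 1 table, CPM that the authors divided by a TMM factor. Whole reads came out for 85.6% to 87.0% of values under 100 CPM (within 0.02 reads), too few to run count tests.

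The identifiers of 12809 genes matched GENCODE M21. Genes that reached 1 CPM in 3 or more libraries were tested on log2(CPM + 0.5) with limma 3.58.1 (lmFit, eBayes with trend) in R 4.3.3, with 12 libraries, 1 mean per group and 8 residual degrees of freedom, and Benjamini-Hochberg adjustment over 11595 genes. Such fold changes understate those of low genes. Ratios to Foxp3 were fitted in 6 libraries, with a spread that eBayes pooled over all genes. The fits were tested on simulated data. The genes and lists were chosen with earlier results of these data known. Named in the text are the 10 genes, up to 4 genes per Treg cell list (smallest adjusted p, mean of at least 5 CPM) and the 8 nearest to Foxp3 in ratio, and Cd3e, Cd44, Lef1, Cxcr6, Ccr7, S100a4, Klrb1c, Tyrobp, Ccr9, Ighm, Il2rg and Ikzf1 were named after their values were seen. Deviations of FlipFlop CD4 and CD8 libraries with the same replicate number correlated at 0.443, 0.271 and 0.513, so these numbers pair the FlipFlop libraries by the rule of over 0.1. Those of B6 CD4 and CD8 were 0.184, 0.0890 and 0.352, so replicate 2 missed this rule and pairing in B6 mice was left unsettled. The main fit used no pairing in either strain, and the replicate block was an alternative. Alternatives were other pseudocounts, filters, scalings, spread estimates, library sets and call rules, a replicate block, and each library left out in turn. Reads have no molecular identifiers, so read numbers cover counting error only.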

Additional observations from a re-analysis of the deposited data

Results flagged for a closer look

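For 6 genes the helper-lineage minus cytotoxic-lineage difference differed between B6 and FlipFlop mice in limma's test of the difference of the differences (log2, B6 minus FlipFlop). The values were -1.69 for Ikzf2, -0.94 for Il2ra, -1.23 for Lrrc32 and -1.63 for Gpr83, for which the helper-lineage excess was larger in FlipFlop mice, and 0.98 for Izumo1r, for which it was smaller. Itgae was at -2.72, being higher in the cytotoxic lineage of B6 mice and not called between the lineages of FlipFlop mice. Of all tested genes 5.49% were called in this test. The call of Il2ra was lost without any 1 of 9 libraries and with the replicate block (adjusted p = 0.0541, limma), that of Izumo1r without any 1 of 10 libraries, that of Lrrc32, which had 3 to 11 reads per cytotoxic-lineage library, with a pseudocount of 0.1, and that of Ikzf2 without eBayes (0.0582). In the same test 5 of 8 memory or effector T cell genes were called negative and 2 of 5 naive T cell genes positive, and their part in the result was not tested. Groups of 3 libraries were not tested for outlying libraries.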

How the results depend on the processing

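Of 1301 recomputed values for single genes, 1175 kept their direction and their side of the threshold, 99 lost a call, 15 gained one, 4 without a test moved, and 8 reversed, none of which was called in either setting. Nrp1 relative to Foxp3 was 0.0023 with a pseudocount of 0.1, 0.0913 and 0.0284 without B6 CD4 replicate 2 or 3, and 0.0467 without FlipFlop CD8 replicate 2 (-0.1353 to 0.0913 over single libraries left out). Ikzf2 between FlipFlop CD4 and B6 CD8 was -0.0625 without B6 CD8 replicate 2 and -0.0682 without FlipFlop CD4 replicate 3 (to 0.3288), Itgae between the FlipFlop groups was -0.1082 without FlipFlop CD4 replicate 3 (to 0.4692), and Ctla4 in the difference between strains was -0.0070 without the TMM factor. The cause was not tested. Asking for more than 5-fold at an unadjusted p under 0.05 or 0.0001 left 0 genes between the helper-lineage groups, 0 between the cytotoxic-lineage groups, 1 in the difference between strains and 0 relative to Foxp3. Without eBayes 3 genes were called in the difference between strains. Relative to Foxp3, 1 was called with all 12 libraries in the fit. Leaving out 1 library gave 10 calls between B6 groups and 9 between FlipFlop groups each time, 9 to 10 between helper-lineage groups, 5 to 7 between cytotoxic-lineage groups, 4 to 6 in the difference between strains and 2 to 3 relative to Foxp3.

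With the replicate number as a block 6 genes were called relative to Foxp3, Ikzf4, Il2ra and Ctla4 being added, but the sources used here do not say what B6 and FlipFlop libraries of one number share, and the correlations of B6 CD4 and FlipFlop CD8 deviations were 0.177, 0.0440 and 0.181. Beyond Foxp3 and Il2ra in the difference between strains, the block changed no other call. Without the TMM factor the median of all genes between the helper-lineage groups moved to 0.15, from -0.0079, and 10 of 10 genes remained called higher. Depth limits Lrrc32 outside the helper lineage.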
